A study of Arabidopsis thaliana with 27 samples.

Results

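The genes described here are the 8 PIP2 plasma membrane aquaporins of *Arabidopsis thaliana*, taken by locus from the 27313 genes quantified in root tips. In the TAIR10.1 annotation they are PIP2A (PIP2;1, AT3G53420), PIP2B (PIP2;2, AT2G37170), PIP2C (PIP2;3, AT2G37180, also RD28), PIP2F (PIP2;4, AT5G60660), PIP2D (PIP2;5, AT3G54820), PIP2E (PIP2;6, AT2G39010), PIP3A (PIP2;7, AT4G35100) and PIP3B (PIP2;8, AT2G16850). The first name of each is used below. All 8 passed the filter on low counts and were among the 19530 genes tested, but PIP2D passed it through AXR3-1 at 180 min, where it is high, and did not pass without those libraries. The family was selected on the level of one member: PIP2D was known to be higher in AXR3-1 root tips after 180 min of estradiol than in their mock. Every value that uses those 3 libraries is therefore given as a description, without a test, and so is every PIP2D value that uses the AXR3-1 mock. PIP2D is therefore left out of the tallies below, which are out of the 7 other members. Its reads outside those 3 libraries are few. Only where a fit was varied do the counts of members include PIP2D, save in comparisons with the AXR3-1 mock.

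RNA-seq was performed on the terminal 7 to 10 mm of roots of 5-d-old seedlings, with 40 to 50 tips pooled in a library. The tested lines were *pG1090::XVE ≫ ΔMP*, which upon estradiol produces a form of the auxin response factor ARF5/MONOPTEROS that escapes repression by Aux/IAA proteins, and *pG1090::XVE ≫ AXR3-1*, which produces AXR3-1, a degradation-resistant IAA17 that keeps auxin target genes repressed. The reference line was Col-0, the wild type without a transgene. XVE is an estradiol-activated chimeric transcription factor, and the G1090 promoter drives it in most cell types. Each line was treated with 2.5 μM estradiol for 90 min or 180 min or with the solvent DMSO (mock) for 90 min, so the 180 min samples are set against a mock of 90 min. There were 9 groups of 3 libraries, A, B and C. Nothing in the labels says that the libraries of a group came from separate cultures, so the p-values measure the spread between these libraries.

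PIP2 proteins form tetrameric channels in the plasma membrane that let water, and for some members hydrogen peroxide, pass between the cell wall and the cytosol. They set much of the water permeability of root cells, and their amount at the membrane is adjusted by transcription, by phosphorylation, by vesicle traffic and by degradation. The related PIP1 proteins reach the plasma membrane largely in tetramers with PIP2 proteins, whereas TIP aquaporins reside in the vacuolar membrane. Auxin has long been linked to aquaporin expression in *Arabidopsis* roots during lateral root emergence, where PIP2A takes part.

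The coding sequences decide how far the members can be told apart, so the informative stretches are shown first. Each gene has 4 coding exons. PIP2B (chr2:15613368-15615022, minus strand) and PIP2C (chr2:15617635-15619155, plus strand) are neighbours transcribed in opposite directions, and their coding sequences are 94.8% identical, with 45 mismatches over 858 bases. Their most different 60 bases, coding bases 414 to 473 of the TAIR10.1 reference, hold 10 mismatches, which are in capitals:
PIP2B: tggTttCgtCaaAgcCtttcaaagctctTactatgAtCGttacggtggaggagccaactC
PIP2C: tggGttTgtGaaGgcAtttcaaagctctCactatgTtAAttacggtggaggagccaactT
Of the 31-base words of PIP2B, 38.8% occur in another coding sequence, nearly all of them in PIP2C. Reads from such stretches were divided between the genes by estimation, so the separate levels of PIP2B and PIP2C are uncertain.

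PIP2E (chr2:16291280-16294101, plus strand) and PIP2D (chr3:20301759-20304309, plus strand) are the members whose levels varied most. Their coding sequences are 76.5% identical. Their most different 60 bases are coding bases 16 to 75, near the start of the coding sequence, with 27 mismatches in capitals:
PIP2E: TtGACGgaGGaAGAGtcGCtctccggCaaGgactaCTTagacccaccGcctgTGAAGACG
PIP2D: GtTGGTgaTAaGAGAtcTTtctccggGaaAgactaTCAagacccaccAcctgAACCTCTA
The longest stretch that they have in common is the 20 bases tgggcctttggtggcatgat, at coding bases 250 to 269 of both. No stretch of 31 bases is shared, so reads of these genes could be assigned to one or the other.

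In root tips the family consisted of 3 abundant, 2 intermediate and 3 scarce genes. Levels are given as TPM, a relative abundance of transcripts that is corrected for their length, so that genes can be compared. Over the 27 libraries, the TPM of PIP2A ranged between 731.5 and 1335 with a median of 1143, that of PIP2B between 849.4 and 1211 with a median of 1084, and that of PIP3A between 692.2 and 943.4 with a median of 868.8. PIP2A contributes to root and guard cell water transport, PIP2B to the hydraulic conductivity of root cells, and PIP3A is an abundant member whose delivery to the membrane depends on SNARE proteins. PIP2F, a root-expressed water and hydrogen peroxide channel, had a median of 191.7 TPM (149.3 to 231.4), and PIP2C, first described as a desiccation-responsive gene, had a median of 114.6 TPM (91.0 to 152.1). PIP3B had a median of 8.34 TPM (6.72 to 10.2), PIP2E, known from leaf vascular tissue, 4.87 TPM (1.46 to 46.3), and PIP2D 0.501 TPM (0 to 3.45).

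The ranges of PIP2A, PIP2B and PIP3A over the libraries overlapped, as did the ranges of PIP2F and PIP2C at their edges. Within each library PIP2F was above PIP2C, and the 3 abundant genes lay above PIP2F, and PIP2C above PIP3B, in every library. PIP2E exceeded PIP3B in the 3 ΔMP libraries at 180 min and in the C and A libraries of ΔMP at 90 min. PIP2D exceeded PIP2E in the 3 AXR3-1 libraries at 180 min and in none of the others. By median share, PIP2A made up 33.8% of the summed PIP2 TPM, PIP2B 31.4%, PIP3A 25.0%, PIP2F 5.73%, PIP2C 3.38%, PIP3B 0.246%, PIP2E 0.140% and PIP2D 0.0145%.

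**Figure D1:**
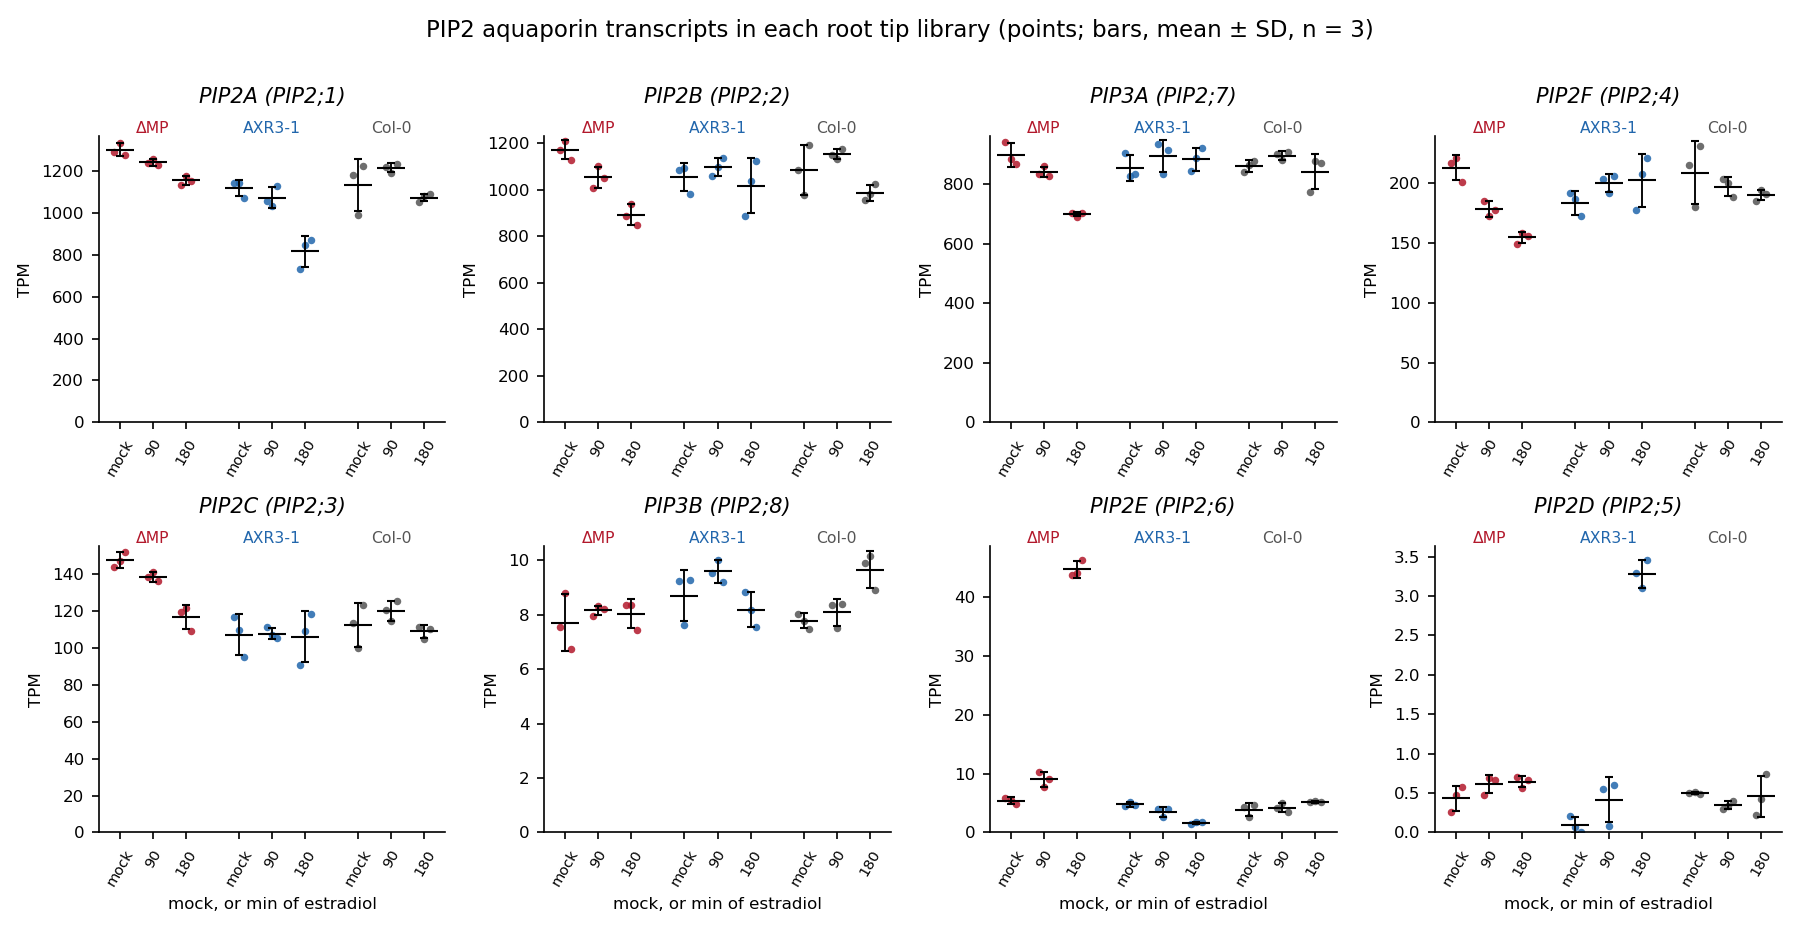
TPM of the 8 PIP2 genes in each library, by line and by time of estradiol (points, libraries; bars, mean ± SD, n = 3). PIP2E stands at 43.7 to 46.3 TPM in ΔMP at 180 min and PIP2D at 3.10 to 3.45 TPM in AXR3-1 at 180 min, whereas the abundant genes vary over a narrow range.

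The libraries held 13634037 to 34272503 read pairs assigned to coding sequences, with a median of 20071330. The induced genes followed their labels. ARF5 stood at 9.06 to 9.47 TPM in ΔMP mock, at 898.2 to 975.6 TPM at 90 min and at 1342 to 1425 TPM at 180 min, and IAA17 stood at 2439 to 2594 TPM in AXR3-1 at 180 min against 130.3 to 152.1 TPM in AXR3-1 mock. Reads from a transgene and from the native gene cannot be told apart. In bulk root tips, fewer cells of a type and less RNA per cell cannot be told apart either. The summed TPM of 3 root hair markers was 121.5 to 125.9 in ΔMP at 180 min against 84.6 to 95.6 in ΔMP mock, and 35.8 to 41.6 in AXR3-1 at 180 min against 71.4 to 88.0 in AXR3-1 mock. That of 3 root cap markers was 25.2 to 27.9 in ΔMP at 180 min against 37.7 to 39.2 in ΔMP mock. In that comparison, where 12.7% of all genes tested rose and 12.1% fell, 2 of the 3 root hair markers rose, 2 of the 3 root cap markers fell, and 2 of 4 endodermis markers fell (summed TPM 815.0 to 874.5 in ΔMP at 180 min against 911.6 to 975.1 in ΔMP mock). None of these markers was at 0 TPM in any library. Green tissue markers summed to 42.4 to 44.2 TPM in ΔMP at 180 min against 52.1 to 56.8 TPM in ΔMP mock, and 1 of the 2 tested fell. The shifts differed at 90 min in ΔMP, where green tissue markers summed to 67.0 to 72.4 TPM and root hair markers to 78.6 to 85.5 TPM. Root cap markers (33.0 to 36.7 TPM) and endodermis markers (799.9 to 866.3 TPM) were below their ΔMP mock ranges at 90 min too. The part of such shifts in the results was not tested.

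The ΔMP line asks how the family responds when ARF5 is released from Aux/IAA repression. At 180 min of estradiol PIP2E rose strongly while 4 of the more abundant members fell slightly, against ΔMP mock. PIP2E had 43.7, 44.0 and 46.3 TPM in ΔMP at 180 min, against 5.92, 5.50 and 4.87 TPM in ΔMP mock. All libraries at 180 min lay far above every mock library. The mean was 44.7 ± 1.42 TPM in ΔMP at 180 min and 5.43 ± 0.528 TPM in ΔMP mock (SD, n = 3), 8.23 times the mock level. The log2 fold change was 3.11 ± 0.14 (SE; adjusted p = 4.8e-18, edgeR quasi-likelihood test with Benjamini-Hochberg adjustment over all genes tested). The underlying estimated counts were 556, 697 and 998 in ΔMP at 180 min against 75, 103 and 103 in ΔMP mock. PIP2E made up 1.46% of the PIP2 TPM in ΔMP at 180 min and 0.145% in ΔMP mock.

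PIP2E was already above the mock at 90 min. It had 10.2, 7.74 and 9.10 TPM in ΔMP at 90 min, which is above all mock libraries, with a log2 fold change of 0.74 ± 0.15 (SE; adjusted p = 0.0018, edgeR). Between 90 min and 180 min of estradiol it rose further, by 2.36 ± 0.12 on the log2 scale (SE; adjusted p = 4.8e-16, edgeR). In Col-0, PIP2E had 5.10, 5.35 and 5.15 TPM at 180 min, against 4.29, 2.65 and 4.70 TPM in Col-0 mock, and this difference did not pass the test (adjusted p = 0.200, edgeR). The response of ΔMP at 180 min exceeded that of Col-0 by 2.68 ± 0.24 on the log2 scale (SE; adjusted p = 6.3e-10, edgeR), whereas at 90 min the excess of 0.69 ± 0.25 did not pass (adjusted p = 0.225, edgeR). Without Col-0 mock library B, in which PIP2E was lowest, the excess at 90 min was 0.91 and passed (adjusted p = 0.0444).

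The members that fell in ΔMP at 180 min were PIP2F, PIP2B, PIP3A and PIP2C. PIP2F had 149.3, 158.7 and 156.1 TPM in ΔMP at 180 min, against 216.8, 220.9 and 201.2 TPM in ΔMP mock, with no overlap, and its log2 fold change was -0.43 ± 0.07 (SE; adjusted p = 1.9e-05, edgeR). PIP2B had 885.2, 939.5 and 849.4 TPM against 1171, 1211 and 1129 TPM in ΔMP mock, again without overlap, with a log2 fold change of -0.36 ± 0.06 (adjusted p = 2.2e-05, edgeR). PIP3A had 703.4, 692.2 and 702.9 TPM against 943.4, 885.8 and 868.8 TPM in ΔMP mock, with a log2 fold change of -0.32 ± 0.05 (adjusted p = 1.9e-05, edgeR). The 3 values of PIP3A in ΔMP at 180 min were also its lowest over the 27 libraries. PIP2C had 119.8, 121.6 and 109.4 TPM against 143.9, 147.3 and 152.1 TPM in ΔMP mock, with a log2 fold change of -0.31 ± 0.07 (adjusted p = 0.0014, edgeR). These decreases are smaller than the 1 on the log2 scale that is used in the study as a minimum, which PIP2E alone of the members exceeded.

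PIP2A and PIP3B did not pass in this comparison, and PIP2D is only described. PIP2A had 1133, 1176 and 1154 TPM in ΔMP at 180 min, against 1291, 1335 and 1276 TPM in ΔMP mock. The groups did not overlap, but the log2 fold change of -0.14 ± 0.06 had an adjusted p of 0.104 (edgeR). In a fit restricted to the ΔMP libraries compared, the PIP2A difference passed (adjusted p = 0.0084). PIP2D, a member known to be induced by drought when others decline, had 0.699, 0.563 and 0.663 TPM in ΔMP at 180 min. Its ΔMP mock values were 0.261, 0.473 and 0.571 TPM, and the ranges overlapped. These PIP2D values rest on 8, 8 and 13 counts against 3, 8 and 11, and are given without a test. PIP3B, a scarce member, had 7.43 to 8.35 TPM in ΔMP at 180 min, within the 6.72 to 8.80 TPM of ΔMP mock.

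Of the 7 members other than PIP2D, 1 rose and 4 fell in ΔMP at 180 min against the mock. Of all genes tested, 12.7% rose and 12.1% fell. At 90 min, 1 rose and 1 fell, where 1.28% of genes rose and 2.75% fell. The member that fell was PIP2F, with 185.2, 172.7 and 177.4 TPM in ΔMP at 90 min and a log2 fold change of -0.26 ± 0.07 (adjusted p = 0.0315, edgeR). Of the ΔMP mock and ΔMP 90 min libraries, leaving out any single one other than ΔMP 90 min A lost this call (adjusted p up to 0.159, edgeR). Between 90 min and 180 min in ΔMP, 1 member rose and 3 fell (PIP2B, PIP2C and PIP3A), where 11.1% of genes rose and 10.2% fell. PIP3A fell in that interval by 0.22 on the log2 scale (adjusted p = 0.0018). The decrease of PIP2B (adjusted p = 0.0138) was lost without ΔMP 180 min C or ΔMP 90 min B, and that of PIP2C (adjusted p = 0.0316) without ΔMP 180 min B, ΔMP 180 min C, ΔMP 90 min A or ΔMP 90 min B.

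Set against the response of Col-0 at 180 min, the ΔMP response was higher for 1 member and lower for 1, where 5.7% of genes were higher and 4.39% lower. Beside PIP2E this was PIP3A, whose ΔMP response was lower by 0.30 ± 0.08 on the log2 scale (SE; adjusted p = 0.0068, edgeR). The difference for PIP2F was of like size, -0.31 ± 0.10 (adjusted p = 0.0507, edgeR), and passed with DESeq2 (adjusted p = 0.0341). Over the alternative settings it passed in 8 and did not pass in 12, so the PIP2F call was borderline. Without Col-0 mock library C, 5 members passed in this comparison in place of 2. The share of all genes that passed without that library is not given, so this count describes only the stability of the calls. At 90 min none of the members passed with edgeR or DESeq2, where 1.45% of genes did, and 2 had an unadjusted p under 0.05.

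**Figure D2:**
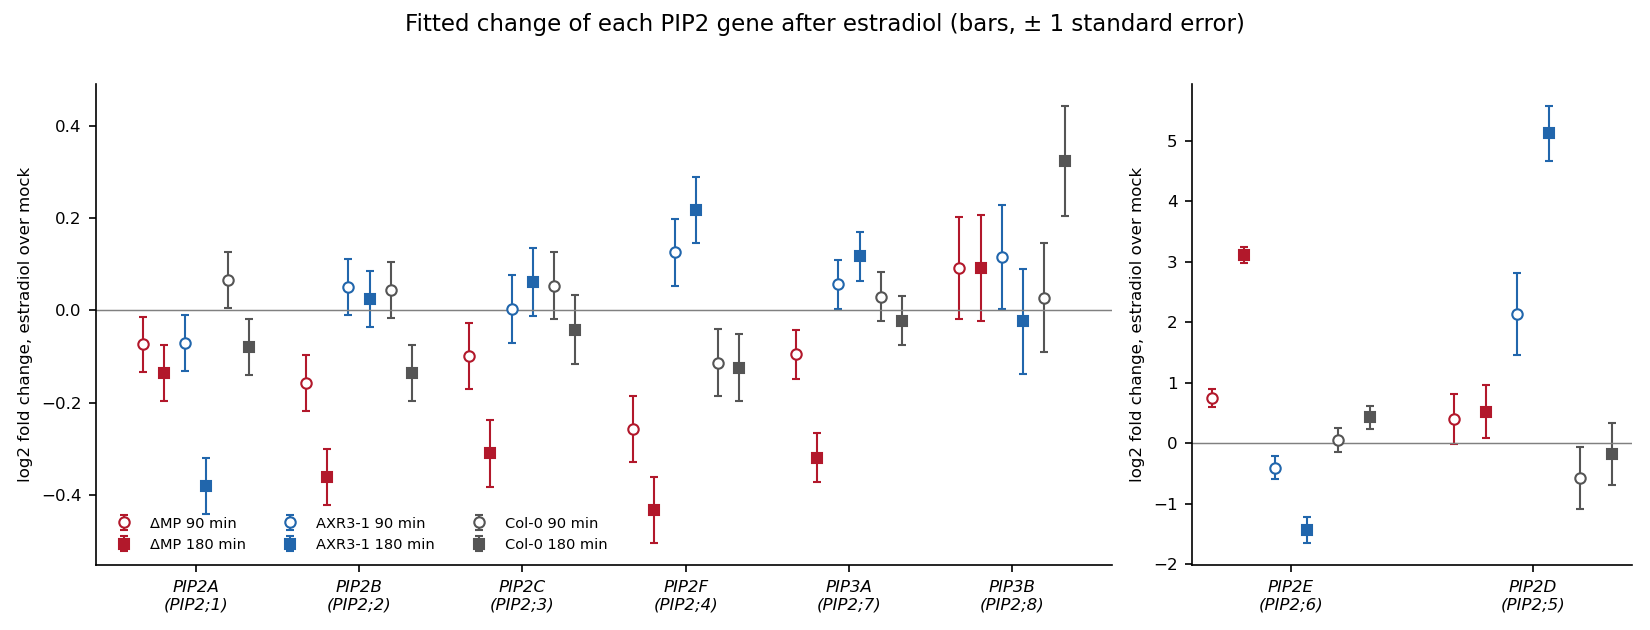
Log2 fold change of each PIP2 gene against the mock of the same line after 90 and 180 min of estradiol, with standard errors from the edgeR fit. The right panel, with PIP2E and PIP2D, has a wider scale. At 180 min PIP2E stands at 3.11 for ΔMP and at -1.43 for AXR3-1, and PIP2D stands at 5.12 for AXR3-1, which is the value the family was chosen by.

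The summed PIP2 level of the ΔMP line was 3745 ± 92.4 TPM in mock, 3469 ± 69.5 TPM at 90 min and 3070 ± 61.9 TPM at 180 min (SD, n = 3). The groups at 180 min and in mock did not overlap, and the difference of -674.6 TPM came from the abundant members, being -713.8 TPM without PIP2E. In Col-0 the sum was 3216 ± 108 TPM at 180 min and 3409 ± 272 TPM in mock, with overlap. ΔMP mock had the highest mean sum of the groups. At 180 min the ΔMP sum, 3026 to 3141 TPM, overlapped that of Col-0, 3095 to 3302 TPM. The balance between PIP2A and PIP2B also differed. The ratio of PIP2A to PIP2B was 1.25 to 1.36 in the ΔMP libraries at 180 min and 1.10 to 1.13 in ΔMP mock. It was 0.775 to 0.823 in AXR3-1 at 180 min and 1.05 to 1.09 in AXR3-1 mock, so that it stood apart from the mock in opposite directions in the lines. PIP2A itself was below the mock in both lines, with log2 fold changes of -0.14 in ΔMP and -0.38 in AXR3-1. Those of PIP2B were -0.36 and 0.02. In Col-0 the ratio of PIP2A to PIP2B was 1.06 to 1.10 at 180 min and 1.02 to 1.09 in mock, with overlap. PIP2A thus exceeded PIP2B in every ΔMP and Col-0 library and lay below it in the estradiol-treated AXR3-1 libraries. No test was made of these sums and ratios.

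**Figure D3:**
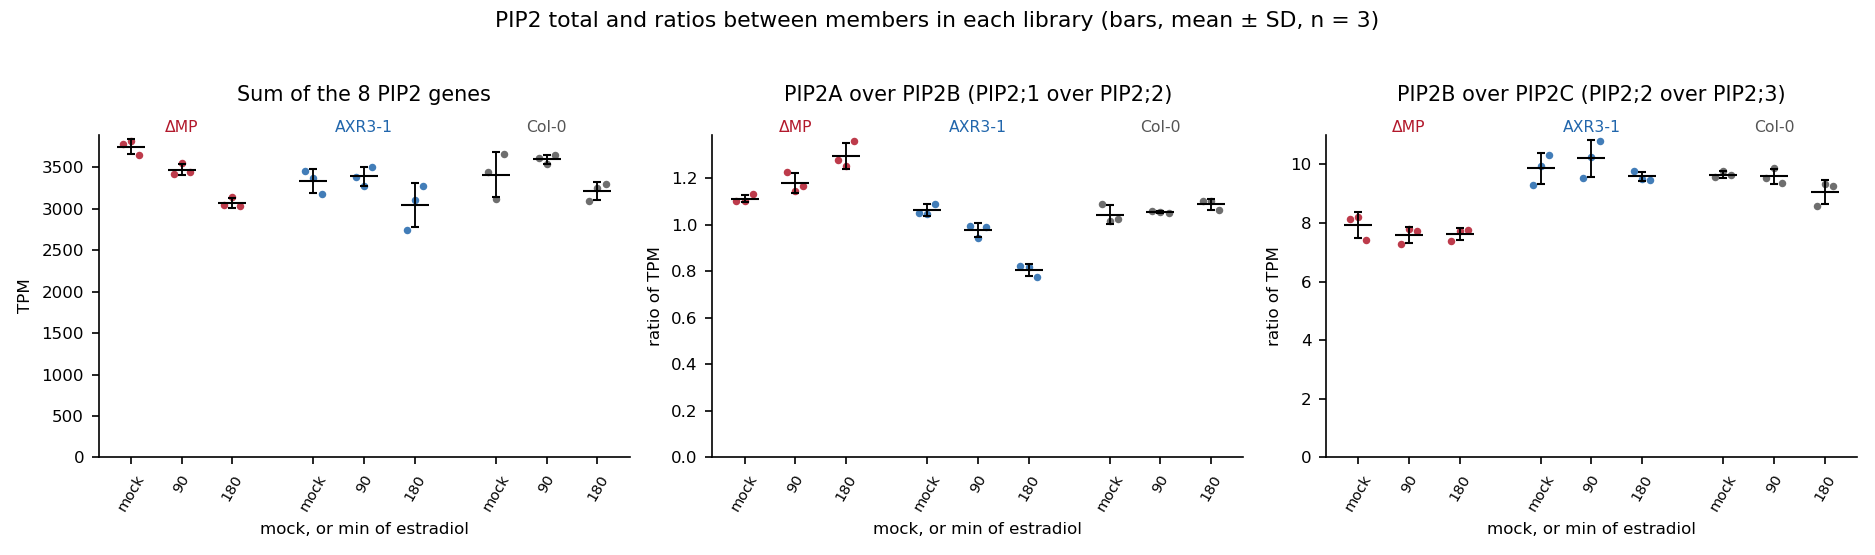
Summed TPM of the 8 PIP2 genes (left), ratio of PIP2A to PIP2B (middle) and ratio of PIP2B to PIP2C (right) in each library, with mean ± SD (n = 3). The PIP2A to PIP2B ratio at 180 min is 1.25 to 1.36 in ΔMP and 0.775 to 0.823 in AXR3-1, and the PIP2B to PIP2C ratio is at most 8.22 in the ΔMP line and at least 8.59 in the other lines.

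The AXR3-1 line asks the converse question, how the family responds when auxin signalling is repressed. At 180 min PIP2D had 3.29, 3.10 and 3.45 TPM in AXR3-1, against 0.212, 0.0739 and 0 TPM in AXR3-1 mock, and no library of any other group was above 0.736 TPM. These are the values that chose the family. They rest on few reads, namely 59, 41 and 46 estimated counts in AXR3-1 at 180 min against 3, 1 and 0 in AXR3-1 mock. On the log2 scale the difference was 5.12 ± 0.46 (SE), and it was 6.33 without AXR3-1 mock A and 4.54 without AXR3-1 mock C. Summed over libraries, 146 counts stood against 4, which at the depth of the libraries is a ratio of 36.5. PIP2D was better detected in Col-0, and against Col-0 at 180 min (15 counts) the ratio was 7.66. Against Col-0 mock (20 counts) it was 6.75. All 3 ratios use the values that chose the family and pool the reads of the libraries, so they are given without an interval. AXR3-1 mock itself had 4 counts, and its low level is part of what chose the family.

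At 90 min PIP2D had 0.558, 0.0864 and 0.606 TPM in AXR3-1 (11, 1 and 7 counts), which overlapped the mock. Its log2 fold change of 2.14 ± 0.68 (SE) is a description, since it shares the mock libraries with the change by which the family was chosen. Against Col-0 at 90 min, the ratio of summed counts in AXR3-1 was 1.32. Its exact 95% interval of 0.628 to 2.85 covers counting error only and not the spread between libraries.

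**Figure D4:**
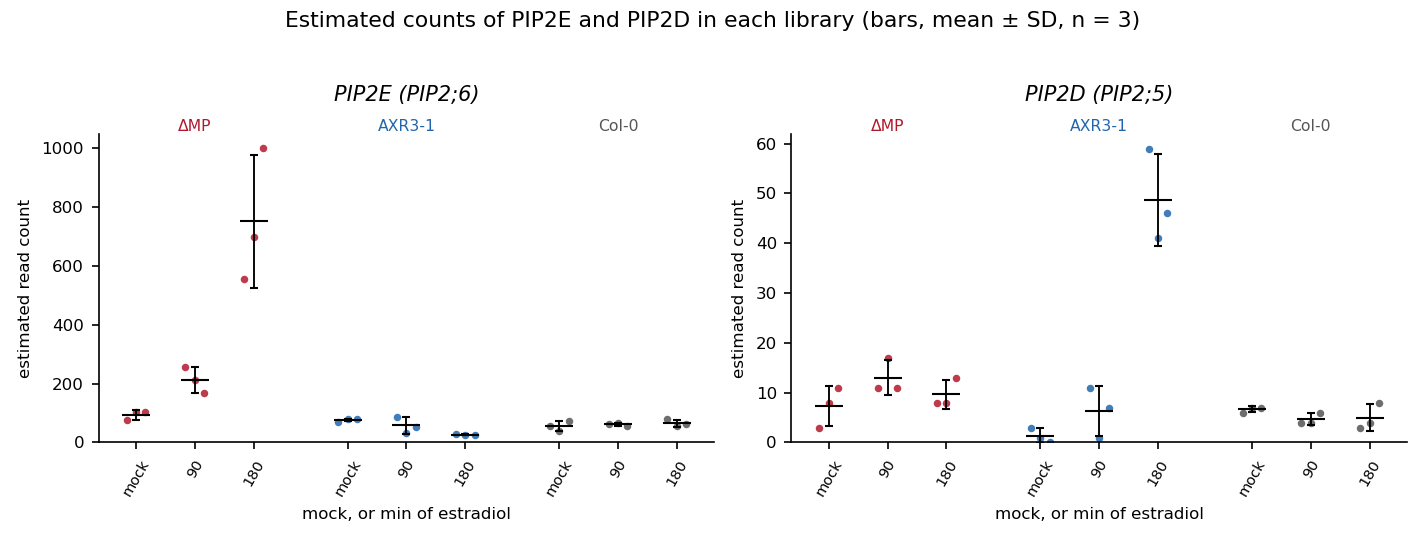
Estimated read counts of PIP2E (left) and PIP2D (right) in each library, with mean ± SD (n = 3). PIP2E reaches 556 to 998 counts in ΔMP at 180 min, and PIP2D reaches 41 to 59 counts in AXR3-1 at 180 min and no more than 17 in any other library.

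PIP2E was lower in AXR3-1 at 180 min, opposite to its direction in ΔMP. It had 1.46, 1.76 and 1.76 TPM in AXR3-1 at 180 min, against 4.51, 5.24 and 4.598 TPM in AXR3-1 mock. These were the 3 lowest PIP2E values of the series, and they correspond to 29, 26 and 26 counts. Its log2 fold change was -1.43 ± 0.22 (SE), and the AXR3-1 response minus that of Col-0 was -1.86 ± 0.29. At 90 min PIP2E had 4.01, 2.57 and 4.05 TPM in AXR3-1, below all 3 mock libraries, but the log2 fold change of -0.40 ± 0.19 did not pass (adjusted p = 0.271, edgeR).

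PIP2A was the abundant member that differed most in AXR3-1. It had 731.5, 847.0 and 870.5 TPM at 180 min, against 1140, 1143 and 1072 TPM in AXR3-1 mock, and all 3 values were below every other PIP2A value of the series. The log2 fold change was -0.38 ± 0.06 (SE), the AXR3-1 response minus that of Col-0 was -0.30 ± 0.09, and the share of PIP2A in the PIP2 TPM was 26.9% in AXR3-1 at 180 min and 33.6% in AXR3-1 mock. PIP2F had 177.9, 207.8 and 221.5 TPM at 180 min against 192.2, 186.5 and 172.2 TPM in AXR3-1 mock, with overlap and a log2 fold change of 0.22 ± 0.07. The log2 fold changes of PIP2B, PIP2C, PIP3A and PIP3B lay between -0.02 and 0.12. The sum over the family was 3039 ± 266 TPM in AXR3-1 at 180 min and 3333 ± 146 TPM in AXR3-1 mock, and the groups overlapped.

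None of the 7 members other than PIP2D passed in AXR3-1 at 90 min against its mock with edgeR or DESeq2, where 5.85% of all genes tested did, and 1 of them had an unadjusted p under 0.05. None of the 7 passed when the AXR3-1 response at 90 min was set against that of Col-0 either, where 1.38% of genes did, again with 1 unadjusted. Between AXR3-1 and Col-0, both at 90 min, none of the 7 passed (edgeR and DESeq2, 2 with an unadjusted p under 0.05), where 4.38% of genes did.

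In Col-0, which carries no inducible gene, none of the members passed with edgeR or DESeq2 at 180 min, where 6.31% of genes did and 3 members had an unadjusted p under 0.05. None passed at 90 min, where 2.94% of genes did and 0 members had an unadjusted p under 0.05, and none passed between 180 and 90 min, where 5.64% did and 3 members had an unadjusted p under 0.05. By adjusted p the closest was PIP2B between 180 and 90 min, with a log2 fold change of -0.18 ± 0.06 (SE; adjusted p = 0.0841, edgeR). Against the mock the closest was PIP3B, with 9.89, 10.2 and 8.90 TPM in Col-0 at 180 min, against 8.04, 7.78 and 7.49 TPM in Col-0 mock, without overlap. Its log2 fold change was 0.32 ± 0.12 (SE; adjusted p = 0.101, edgeR), and with limma on log2(TPM + 0.5) its adjusted p was 0.0445. Without Col-0 180 min C, 1 member passed with edgeR at 180 min against the mock. The share of all genes that passed in that fit is not given, so this count describes only the stability of the calls.

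The uninduced lines also differed in a member. PIP2C had 143.9, 147.3 and 152.1 TPM in ΔMP mock, against 113.5, 99.9 and 123.6 TPM in Col-0 mock, without overlap, with a log2 fold change of 0.39 ± 0.07 (SE; adjusted p = 0.00065, edgeR). Of the 7 members other than PIP2D, 1 was higher and 0 lower, where 1.84% of genes were higher and 1.98% lower. PIP2A passed as well with DESeq2 (adjusted p = 0.0362) or without Col-0 mock C (adjusted p = 0.0120, edgeR). The ratio of PIP2B to PIP2C was 7.27 to 8.22 in the 9 libraries of the ΔMP line and 8.59 to 10.8 in those of the other lines, subject to the shared sequence of this gene pair. PIP2C itself, at 109.4 to 121.6 TPM in ΔMP at 180 min, overlapped its range in the other lines, and PIP2B was low there. Green tissue markers moved with the mock difference: the summed TPM of 4 such markers was 52.1 to 56.8 in ΔMP mock against 31.2 to 36.8 in Col-0 mock, and 1 of the 2 tested rose, RBCS1A, with 36.9 ± 1.53 TPM in ΔMP mock and 20.4 ± 0.727 TPM in Col-0 mock (SD, n = 3). In the same comparison 4 of 6 tested TIP genes rose and 0 fell. The genes most like PIP2C over the 27 libraries were TIP2;3 (r = 0.876), and PSBO1 (0.844) and FTSH8 (0.836), which encode chloroplast proteins. Their part in the PIP2C difference was not tested. In AXR3-1 mock none of the 7 members other than PIP2D passed against Col-0 mock (edgeR and DESeq2, 1 with an unadjusted p under 0.05), where 2.05% of genes did, and PIP2F passed without Col-0 mock B.

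The rest of the aquaporin family was described from fixed lists for ΔMP at 180 min against mock, where 12.7% of all genes tested rose and 12.1% fell. Of 5 PIP1 genes, 0 rose and 4 fell, with a median log2 fold change of -0.39 against 0.01 over all genes. Those that fell were PIP1;4 (log2 fold change -0.87), PIP1A (-0.44), PIP1C (-0.39) and PIP1;5 (-0.17), whereas PIP1B, at 0.06, did not pass. Of 10 TIP genes 6 were tested, of which 1 rose and 3 fell: DELTA-TIP, a vacuolar water channel, rose by 0.55, and TIP4;1 had a log2 fold change of -0.83. Of 12 NIP and SIP genes 10 were tested, of which 0 rose and 2 fell, namely the NIP channel gene NLM1 with -1.63 and NIP5;1, a boric acid channel, with -0.45. In Col-0 at 180 min, 2 of the 5 PIP1 genes fell and 0 rose, where 6.31% of all genes passed in either direction.

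Among 11 genes for traffic, phosphorylation and turnover of PIP2 proteins, 3 rose and 2 fell in ΔMP at 180 min, beside the 12.7% and 12.1% over all genes. QSK1, a receptor kinase that acts with SIRK1, had a log2 fold change of 0.20, the ubiquitin ligase RMA1 0.35 and the kinase OST1, which phosphorylates PIP2A in guard cells, 0.35. SIRK1, which acts on PIP2 proteins upon sucrose, had -0.21, and UBC32, a ubiquitin-conjugating enzyme of the endoplasmic reticulum, had -0.15.

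Correlation of log2(TPM + 0.5) over the 27 libraries was used to describe which genes had patterns most like each member. The libraries share lines and treatments, so these r values are descriptions. PIP2E was most like XTH19 (Pearson r = 0.982), XTH4 (0.979) and BAS1 (0.979). XTH19 and XTH4 encode xyloglucan endotransglucosylase/hydrolases of the cell wall, and BAS1 encodes a cytochrome P450 that inactivates brassinosteroids. Mean TPM of XTH19 was 485.3 in ΔMP at 180 min and 164.0 in ΔMP mock, and it was 90.8 in AXR3-1 at 180 min and 134.8 in AXR3-1 mock. PIP2B was most like the PIP1 genes PIP1A (0.940) and PIP1C (0.877), with PCAP1, a plasma membrane cation-binding protein, between them (0.902). For PIP3A the closest was CASP4 (0.925), a Casparian strip membrane protein. For PIP2A it was AT5G19730 (0.925), with CASP5 (0.916) second. Mean TPM of CASP4 was 75.7 in AXR3-1 at 180 min and 62.4 in AXR3-1 mock, whereas that of CASP5 was 22.1 and 52.4. For PIP2D the closest gene, AT5G60350, had r = 0.899, at levels where single reads matter. No gene exceeded 0.71 for PIP3B.

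**Figure D5:**
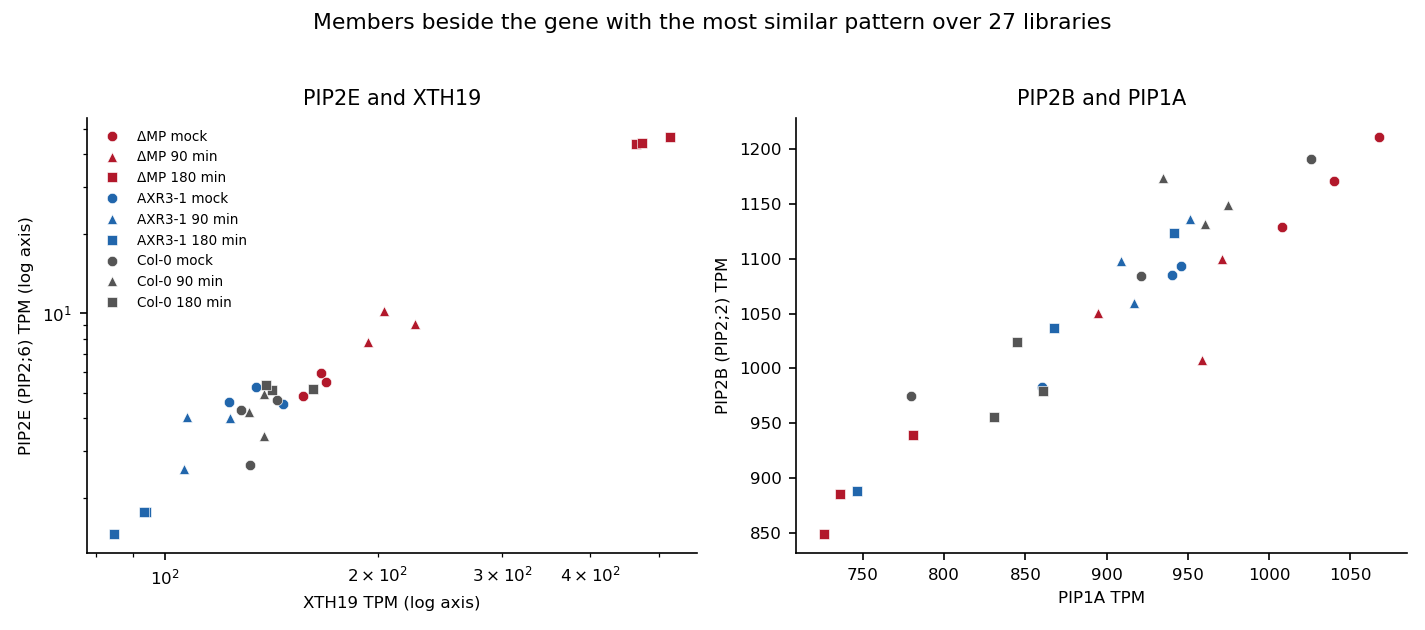
TPM of PIP2E against XTH19 (left, log axes) and of PIP2B against PIP1A (right, linear axes that do not start at 0), 1 point for a library, coloured by line and shaped by time. PIP2E and XTH19 are both highest in the 3 ΔMP libraries at 180 min (r = 0.982).

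Between members, the highest correlations were those of PIP2F with PIP3A (r = 0.798), PIP2F with PIP2B (0.793) and PIP2B with PIP3A (0.744), which are 3 of the 4 members that fell in ΔMP at 180 min. The other that fell, PIP2C, had r = 0.109 with PIP3A, 0.213 with PIP2F and 0.502 with PIP2B. Its r with PIP2A, which did not pass there, was 0.721. PIP2E and PIP3A had r = -0.798. PIP2E and PIP2D, which stood out in opposite lines, had r = -0.239.

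Promoters were searched on both strands over the 1000 bases before each annotated gene start for TGTCTC and TGTCGG, elements bound by auxin response factors, and for the G-box CACGTG. The first motif, TGTCTC, was present once in PIP2A, PIP2C and PIP2D and in none of the other 5, and 39.5% of 26635 promoters of this length hold it. TGTCGG (14.6% of promoters) and CACGTG (14.9%) were in none of the 8. The matches, on either strand, are shown in capitals within 46 bases. They begin 901 bases before the gene start in PIP2A (chr3:19806606-19806651), 566 in PIP2C (chr2:15617049-15617094) and 445 in PIP2D (chr3:20301294-20301339):
PIP2A: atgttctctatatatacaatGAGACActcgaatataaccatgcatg
PIP2C: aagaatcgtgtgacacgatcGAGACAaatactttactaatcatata
PIP2D: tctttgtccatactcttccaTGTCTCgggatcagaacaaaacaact
Within the 300 bases before the gene start, none of the 8 members holds any of the 3 motifs. Of all promoters, 12.9% hold TGTCTC there, 4.9% TGTCGG and 7.2% CACGTG. For PIP2E (chr2:16290980-16291279, plus strand), the member that rose in ΔMP, these 300 bases are:
PIP2E: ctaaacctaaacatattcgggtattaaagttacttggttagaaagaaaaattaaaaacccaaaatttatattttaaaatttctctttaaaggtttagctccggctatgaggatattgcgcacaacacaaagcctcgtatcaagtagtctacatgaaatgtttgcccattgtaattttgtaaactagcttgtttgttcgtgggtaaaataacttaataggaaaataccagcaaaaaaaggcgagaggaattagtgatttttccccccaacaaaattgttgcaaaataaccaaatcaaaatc
A match is only a run of letters, and these counts say nothing of binding.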

How the data were processed

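Root tip RNA-seq reads were quantified by the authors with Salmon 1.3.0 against TAIR10 coding sequences with corrections for positional, sequence and GC bias. The methods name Rcorrector and Trim Galore for trimming, and the submitters' processing notes name Trimmomatic. The authors deposited estimated counts and TPM for each transcript. Coding sequences hold no UTRs, so reads of UTRs were not counted. Here both were summed over the transcripts of each locus, and estimated counts were rounded. A single fit over the 27 libraries was made in edgeR 4.0.16 (R 4.3.3) with TMM scaling, the filter filterByExpr and the quasi-likelihood test. Genes with a Benjamini-Hochberg adjusted p of at most 0.05 rose or fell. The study tested with sleuth, which was not used here. The fit was tested on simulated data. DESeq2 1.42.0, limma 3.58.1 on log2(TPM + 0.5) and log2(TPM + 1), other filters and scalings, and the omission of each library were tried.

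Members and lists were chosen with earlier results of these data known, which the p-values do not allow for. The named genes are the 8 members, members of the fixed lists as examples, and the 3 genes with the highest r for each member. Sequences and motif counts are from RefSeq, TAIR10.1. Depth per library was 13634037 to 34272503 read pairs, and PIP2D had at most 17 counts outside AXR3-1 at 180 min.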

Additional observations from a re-analysis of the deposited data

Results flagged for a closer look

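The responses of PIP2E differed between the lines. At 180 min the ΔMP response exceeded the Col-0 response by 2.68 on the log2 scale (edgeR adjusted p = 6.3e-10), and for PIP3A the ΔMP response was lower, at -0.30 (adjusted p = 0.0068). Between the induced lines, the mean PIP2E level was 8.23 times the mock level in ΔMP at 180 min, and 0.347 times in AXR3-1 at 180 min. At 90 min the ratios were 1.66 in ΔMP and 0.740 in AXR3-1. At both times every ΔMP library lay above all of its mocks and every AXR3-1 library below all of its mocks, and the difference between these lines was not tested.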

How the results depend on the processing

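No result changed direction in the alternatives run. With a minimum log2 fold change of 1 added to the threshold, the number of members that passed was 1 in ΔMP at 180 min, 0 at 90 min, 1 between 180 and 90 min, 1 in the ΔMP response minus that of Col-0 at 180 min, and 0 in ΔMP mock against Col-0 mock. With limma on either pseudocount, 1 member passed in ΔMP at 90 min and 1 in Col-0 at 180 min. With library totals in place of TMM, and with DESeq2, 2 members passed in ΔMP mock against Col-0 mock. With 1 library left out at a time, the count in ΔMP was 1 to 2 at 90 min and 2 to 4 between 180 and 90 min. It was 5 in ΔMP at 180 min in each case. In Col-0 at 180 min the count was 0 to 1. In the ΔMP minus Col-0 response it was 2 to 5 at 180 min and 0 to 1 at 90 min. In ΔMP mock against Col-0 mock it was 1 to 2. PIP2D was included in the counts of this paragraph, except in comparisons with the AXR3-1 mock, where only the 7 other members were counted. Of these 7, none passed in AXR3-1 at 90 min or in the AXR3-1 minus Col-0 response at 90 min, whichever library was left out. In AXR3-1 mock against Col-0 mock, PIP2F alone passed, without Col-0 mock B. The share of all genes that passed in each alternative is not given, so these counts describe only the stability of the calls.

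A replicate block by library letter left every count as it was, with 5 members passing in ΔMP at 180 min and 2 at 90 min. The labels do not say what a letter stands for. The median correlation of deviations was 0.0053 for the same letter (-0.175 to 0.203) and -0.0082 for other letters (-0.191 to 0.192). Such correlations cannot decide whether libraries of a letter shared a day or culture. The log2 fold change of PIP2D in AXR3-1 at 180 min was 2.68 with limma and a pseudocount of 0.5 and 1.97 with a pseudocount of 1. The PIP2D ratios against Col-0 and the PIP2 sum without PIP2E were chosen after seeing the data. Depth limits PIP2D above all.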
